A study of Mus musculus with 4 samples.

Results

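The heat shock chaperones described here are 10 mouse genes, picked by symbol from the 43629 genes counted in each library: Hspa1a, Hspa1b, Hsph1, Dnajb1, Hspb1, Hspa8, Hsp90aa1, Hsp90ab1, Hspd1 and Hspe1. All 10 were found and all 10 passed the minimum level in each comparison. The libraries were made from pancreatic islets of C57BL/6 mice, with 1 library in each of 4 groups and no replicate. Control islets carry the genotype label control, and the second library carries the genotype label Rip2;IMP2 and is called an islet specific IMP2 knockout in the series title (below, the knockout-labelled islets). The other 2 libraries are labelled wild type: RNA recovered by immunoprecipitation of the RNA-binding protein IMP2 (the RIP) and a library labelled IgG. For all 4 the labels describe flash-frozen islets and Trizol RNA, and beyond the name Rip2;IMP2 they give no driver, allele, age, number of animals or heat treatment.

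Heat shock chaperones bind unfolded proteins and help them fold, refold or be degraded. Some, such as Hspa8 and Hsp90ab1, are made at all times, and others, such as Hspa1a and Hspa1b, are made mainly after heat or other protein-damaging stress, when the factor HSF1 binds repeats of a short GAA unit in their promoters. Islet beta cells fold very large amounts of proinsulin, which takes place in the endoplasmic reticulum with another set of chaperones, so the cytosolic set handles the proteins made outside the secretory route. Hspd1 and Hspe1 encode the chaperonin of the mitochondrial matrix and its lid, so the name cytosolic covers 8 of the 10 genes only.

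Each pair of libraries was set on a common scale by TMM (trimmed mean of M values), a factor meant to centre the bulk of the genes. After it the median log2 ratio of all measured genes was 0.00 in the labelled knockout over control and -0.12 in the RIP over control. It was 0.44 in the RIP over IgG and -0.79 in IgG over control, so the median was not centred in those pairs. A call of higher or lower needed 2 things: the exact 95% interval on the ratio of the 2 libraries had to exclude 1, and the ratio had to reach 1.5-fold (labelled knockout over control) or 2-fold (comparisons with the RIP or IgG library). These intervals cover the counting error of 2 libraries and nothing else, no molecular identifiers are stated for the reads, and with 1 library per group no p-value is given. Levels are CPM, counts divided by the library's gene counts and scaled alike in all libraries, before TMM. TMM multiplied the ratio of CPM values by 1.04 for the knockout-labelled islets over control, by 1.21 for the RIP over control, by 1.88 for IgG over control and by 0.620 for the RIP over IgG.

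The libraries held 6025594 to 26350813 gene counts, fewest in the RIP. Igf2bp2, the gene of IMP2, had 255 counts in control and 222 in the knockout-labelled islets, a ratio of 0.979 (0.814 to 1.18). The gene counts thus showed no loss of its RNA. Counts per gene in bulk islets do not resolve parts of the gene or cell types, and the knockout itself was not tested. The library labelled IgG did not look like islet RNA: 12 brown fat and adipocyte markers summed to 48679 CPM there, while control islets held 279 CPM, the knockout-labelled islets 235 CPM and the RIP 2865 CPM, and 10 beta cell markers summed to 973 CPM against 309568 CPM in control islets. In the knockout-labelled islets 12 B and T cell markers summed to 267 CPM against 1454 CPM in control islets, and all 12 were called lower. Macrophage markers were mixed (388 against 676 CPM), with 1 of 8 called higher and 2 lower. Alpha and delta cell markers summed to 28557 CPM against 17612 CPM in control islets, with 4 of 7 called higher and 0 lower.

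The promoter sequences are shown first because promoters with GAA repeats are the feature for which stress-inducible chaperone genes are known. Hspa1a and Hspa1b lie next to each other on mouse chromosome 17, on the minus strand, in the region of the major histocompatibility complex. Hspa1b spans 34956436 to 34959238 and Hspa1a spans 34969190 to 34972156 (GRCm38), with 9951 bases between them. The 250 bases before their start sites, from RefSeq on GRCm38.p6, matched at 247 positions (98.8%), and the 3 differing bases are in capitals:
Hspa1a, chr17:34972157-34972406, minus strand: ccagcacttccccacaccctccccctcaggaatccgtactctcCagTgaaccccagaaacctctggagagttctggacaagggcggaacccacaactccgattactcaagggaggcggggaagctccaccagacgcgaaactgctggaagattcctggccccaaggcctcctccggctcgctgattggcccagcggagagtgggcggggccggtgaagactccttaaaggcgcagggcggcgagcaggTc
Hspa1b, chr17:34959239-34959488, minus strand: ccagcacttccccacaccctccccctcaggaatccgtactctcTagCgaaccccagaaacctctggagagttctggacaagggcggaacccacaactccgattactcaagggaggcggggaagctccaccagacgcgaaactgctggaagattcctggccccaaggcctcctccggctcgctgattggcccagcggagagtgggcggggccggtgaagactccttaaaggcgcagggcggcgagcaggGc

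The heat shock element was searched for as GAANNTTC and TTCNNGAA, the pairs of inverted GAA units, and as GAANNTTCNNGAA and TTCNNGAANNTTC, which hold 3 units and contain both shorter motifs. The first pair read the same on both strands, and the longer ones are each other's reverse complement. The search covered windows of 300 bases, from 250 before to 50 after each RefSeq start. Of 32851 such windows over all genes, 15.1% held a shorter motif (GAANNTTC 7.86%, TTCNNGAA 8.52%) and 0.603% held one with 3 units. RefSeq windows were matched for 7 of the 10 chaperones, all but Hspa8, Hsp90aa1 and Hsp90ab1. By gene, counting any window, the shares over 27025 genes were 16.97% for a shorter motif and 0.662% for one with 3 units. A motif was in a window of 6 of the 7 matched chaperones, and one with 3 units in 3 of them (Hspd1, Hspe1 and Hsph1). Hspd1 and Hspe1 share the same site, and the other Hspd1 window held no motif. The Hsph1 site with 3 units lies after the start, beginning at base 16 or 37 depending on the RefSeq start. Dnajb1, the HSP40 partner of the inducible HSP70 proteins, had none of these letter patterns in its windows.

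These are the matched sites in 30 bases each, with the GAA and TTC units and the bases between them in capitals:
Hspa1a, chr17:34972242-34972271, minus strand: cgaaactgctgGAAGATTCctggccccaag
Hspa1b, chr17:34959324-34959353, minus strand: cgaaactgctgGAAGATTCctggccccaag
Hspb1 first site, chr5:135887791-135887820, plus strand: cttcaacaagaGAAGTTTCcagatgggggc
Hspb1 second site, chr5:135887811-135887840, plus strand: agatgggggcaGAACCTTCctggccccgcc
Hsph1 site with 3 units, chr5:149636279-149636308, minus strand: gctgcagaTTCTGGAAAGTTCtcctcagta
Hsph1 shorter site, chr5:149636351-149636380, minus strand: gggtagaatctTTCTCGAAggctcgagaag
Hspd1 and Hspe1 shared site, chr1:55088053-55088082, plus strand: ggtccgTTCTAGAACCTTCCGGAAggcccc

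The sites of Hspa1a and Hspa1b were identical, and their first capital lay 104 bases before each start. The Hspd1 and Hspe1 genes run in opposite directions from one promoter on chromosome 1 (55077835 to 55088243 on the minus strand and 55088132 to 55091307 on the plus strand) and overlap by 112 bases. They share the last site, an unbroken run of GAA and TTC units over 18 bases, which began 89 bases before the start of Hspe1. A match is a string of letters and was not tested as a binding site in these islets.

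How well each gene could be counted differed, because reads that align to several places are not assigned to a gene. The share of 50-base windows of each representative transcript that also occur exactly in a transcript of another gene was 66.3% for Hspa1a and 62.3% for Hspa1b. The coding sequences of these 2 genes (1926 and 1929 bases) were 99.4% identical, with 8 mismatches and 3 gap positions, so most reads from the coding part cannot be given to either. In the parts reaching into the untranslated ends the shared share was 28.7% for Hspa1a and 19.6% for Hspa1b. Their separate counts therefore rest mainly on their ends, and their sum is given beside them.

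**Figure D1:**
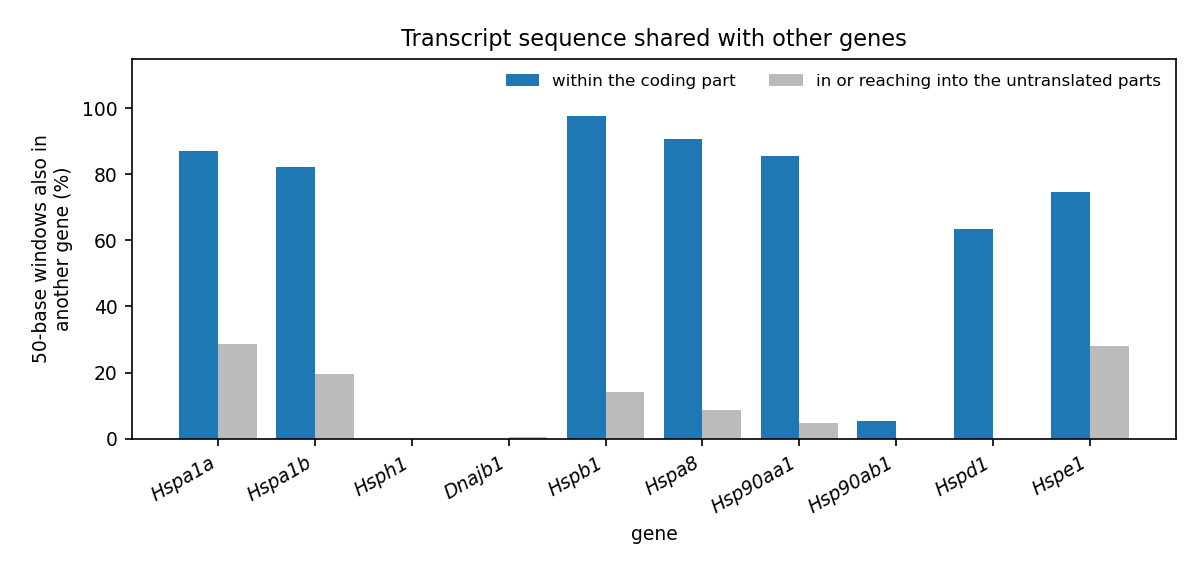
Share of 50-base windows of each chaperone transcript that occur exactly in an annotated transcript of another gene (%), for windows within the coding part (blue bars) and windows in or reaching into the untranslated parts (grey bars). Hsph1, Dnajb1 and Hsp90ab1 stand at or near 0, while 63.5% to 97.7% of the coding windows of the other 7 genes were shared.

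Processed copies of other chaperone genes had a like effect. Of the 50-base windows of Hspa8, 74.8% were shared, mostly with the copies Gm15459 and Gm26825. The share was 58.5% for Hsp90aa1 (mostly Gm12346), 51.6% for Hspb1 (Hsp25-ps1) and 44.8% for both Hspd1 (Hspd1-ps3) and Hspe1. It was 4.49% for Hsp90ab1, 0.441% for Dnajb1 and 0% for Hsph1. Levels of the genes with shared windows are lower limits, and levels of different genes cannot be compared closely. The ratio of 1 gene between libraries is touched less, as far as the libraries were read in the same way.

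Chaperone RNA was led by Hsp90ab1, the constitutive cytosolic HSP90. In control islets the 10 genes together held 1814 CPM (0.181% of gene counts), of which Hsp90ab1 made up 64.2%. The sum was 1193 CPM in the knockout-labelled islets, 1174 CPM in the RIP and 2442 CPM in the IgG library, with Hsp90ab1 at 60.9%, 55.3% and 40.9% of it. Per kilobase of merged exons, Hsp90ab1 ranked 29th among protein-coding genes in control islets, 43rd in the knockout-labelled islets, 59th in the RIP and 179th with IgG.

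Per kilobase of exon and scaled as CPM, control islets held 388 reads for Hsp90ab1 and 57.5 for Hspa8, the constitutive HSP70. They were followed by Hspd1 at 27.8, Hsp90aa1 at 24.4, Hspe1 at 20.4, Hspb1 at 16.9, Dnajb1 at 15.7 and Hsph1 at 13.9. The inducible HSP70 genes came last, Hspa1b at 8.19 and Hspa1a at 3.93. In that order only Hspb1 and Dnajb1 were neighbours whose counting intervals overlapped (15.4 to 18.6 and 14.9 to 16.6). In the knockout-labelled islets the order was the same but for 2 swaps between neighbours whose intervals overlapped there: Hsp90aa1 with Hspd1, and Hsph1 with Dnajb1. In the RIP Hsp90aa1 moved up to the place below Hsp90ab1, at 41.1, and in the IgG library Hspd1 did, at 187, with Hspa8 at 126 and Hspe1 at 118.

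**Figure D2:**
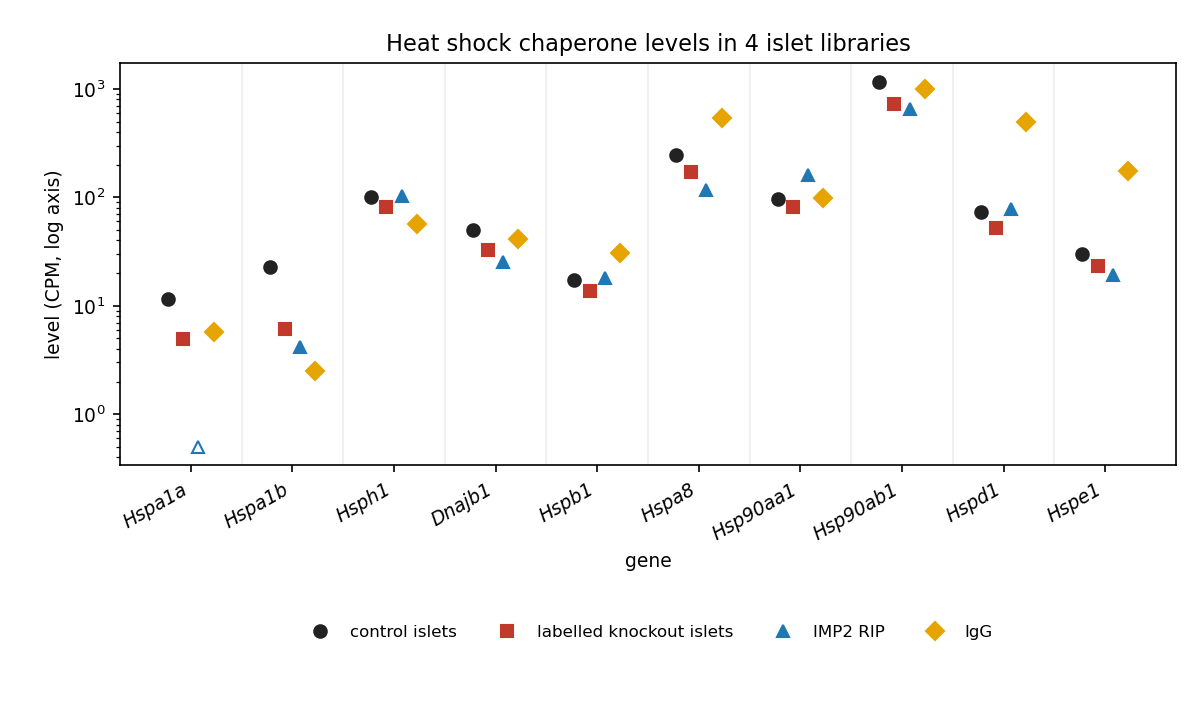
Level of each chaperone gene (CPM, log axis) in the 4 libraries, 1 symbol per library. The open triangle marks Hspa1a, which had 0 counts in the RIP, drawn at the level of 3 counts (0.498 CPM). Every knockout-labelled square lies below the control circle, and the IgG diamonds of Hspa8, Hspd1 and Hspe1 lie above all other symbols of those genes.

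In the knockout-labelled islets over control, the inducible HSP70 genes stood lowest. Hspa1b had 605 counts (23.0 CPM) in control islets, 147 (6.06 CPM) in the knockout-labelled islets, 25 (4.15 CPM) in the RIP and 33 (2.50 CPM) in the IgG library. Control islets thus held the most Hspa1b of the 4 libraries. The labelled knockout had 3.66-fold less than control (ratio 0.273, 0.227 to 0.328). Hspa1a had 307 counts (11.7 CPM) in control islets, 121 (4.98 CPM) in the knockout-labelled islets, 0 in the RIP and 75 (5.68 CPM) in the IgG library. Its level in the knockout-labelled islets was 2.26-fold lower than in control (ratio 0.443, 0.356 to 0.549). Where a bound was needed, the 0 in the RIP was set at 3 counts, 0.498 CPM. With both genes summed, 912 counts in control stood against 268 in the knockout-labelled islets, 3.03-fold lower (ratio 0.330, 0.287 to 0.379).

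Hsp90ab1 was the third gene called lower in the knockout-labelled islets. It had 30689 counts (1165 CPM) in control islets, 17644 (727 CPM) in the knockout-labelled islets, 3916 (649.9 CPM) in the RIP and 13181 (999 CPM) in the IgG library. The labelled knockout and the RIP were the low libraries for this gene. The knockout ratio was 0.646 (0.634 to 0.658), 1.55-fold lower, and this call was lost when a coefficient of variation of 0.2 per library was assumed on top of the counting error.

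So 3 of the 10 chaperones were called lower and 0 higher, against background shares of 15.3% lower and 6.13% higher over the 15735 measured genes. The ratios of all 10 were below 1, with every interval below 1. Of the 15735 measured genes, 4959 had an interval below 1. The median log2 ratio of the 10 chaperones was -0.47, against 0.00 over all measured genes. All 10 stayed below 1 with library totals, with DESeq2 size factors and with totals that leave out marker genes. The cell type markers given above differed between the same 2 libraries, and their part in these ratios was not tested. Fewer cells of a type and less RNA per cell cannot be told apart in such bulk RNA.

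Among the partners of HSP70, Dnajb1 stood nearest to the limit. It stimulates the ATPase of HSP70 and had 1326 counts (50.3 CPM) in control islets, 799 (32.9 CPM) in the knockout-labelled islets, 154 (25.6 CPM) in the RIP and 549 (41.6 CPM) in the IgG library. By CPM control was highest, while after TMM the IgG library stood above it (ratio 1.56). The knockout ratio of 0.677 (0.620 to 0.740) was 1.48-fold lower and not called, though library totals and DESeq2 size factors each put it past the limit. Hsph1, an HSP110 protein that exchanges the nucleotide of HSP70, had 2656 counts (101 CPM) in control, 1992 (82.1 CPM) in the knockout-labelled islets, 620 (103 CPM) in the RIP and 756 (57.3 CPM) in the IgG library. Control and the RIP held like levels of Hsph1 by CPM. Its knockout ratio was 0.843 (0.795 to 0.894), not called.

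Hspa8, which folds new proteins and uncoats clathrin vesicles, had 6517 counts (247 CPM) in control, 4131 (170.2 CPM) in the knockout-labelled islets, 698 (116 CPM) in the RIP and 7125 (539.9 CPM) in the IgG library. The IgG library was far above the others and the RIP lowest. The knockout ratio was 0.713 (0.685 to 0.741), 1.40-fold lower and not called. Hsp90aa1, the stress-responsive cytosolic HSP90, had 2523 counts (95.7 CPM) in control, 1963 (80.9 CPM) in the knockout-labelled islets, 973 (161 CPM) in the RIP and 1297 (98.3 CPM) in the IgG library. By CPM the RIP was highest, while after TMM the RIP and IgG libraries stood at like levels (ratio 1.02), and the knockout ratio of 0.875 (0.824 to 0.928) was the one nearest to 1.

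The 3 remaining genes lay between these. Hspb1, a small heat shock protein that holds unfolded proteins and binds actin, had 460 counts (17.5 CPM) in control, 329 (13.6 CPM) in the knockout-labelled islets, 108 (17.9 CPM) in the RIP and 408 (30.9 CPM) in the IgG library. Its knockout ratio was 0.804 (0.696 to 0.928). Hspd1, the mitochondrial HSP60, had 1938 counts (73.5 CPM) in control, 1265 (52.1 CPM) in the knockout-labelled islets, 466 (77.3 CPM) in the RIP and 6510 (493 CPM) in the IgG library. Its knockout ratio was 0.734 (0.683 to 0.788). Hspe1, the HSP10 lid of the HSP60 barrel, had 792 counts (30.1 CPM) in control, 570 (23.5 CPM) in the knockout-labelled islets, 116 (19.3 CPM) in the RIP and 2295 (174 CPM) in the IgG library. Its knockout ratio was 0.809 (0.725 to 0.902). None of the 3 was called in the knockout-labelled islets, and the IgG library was the highest for each.

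Ratios taken within a library do not depend on the scaling between libraries. The sum of Hspa1a and Hspa1b per Hspa8 count was 0.140 in control islets (0.130 to 0.15) and 0.0649 in the knockout-labelled islets (0.0571 to 0.0734). Inducible HSP70 was thus 2.16-fold lower relative to constitutive HSP70, a ratio of ratios of 0.464 (0.402 to 0.534). Hsp90aa1 per Hsp90ab1 count was 0.0822 in control and 0.111 in the knockout-labelled islets, 1.35 times as much (1.27 to 1.44). The stress-responsive form was thus lower relative to the constitutive form in the HSP70 family and higher in the HSP90 family. Hspa1a per Hspa1b was 0.507 in control and 0.823 in the knockout-labelled islets, 1.62 times as much (1.23 to 2.14), with the caution on shared reads given above.

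Hsph1 per Hspa8 was 0.408 in control and 0.482 in the knockout-labelled islets, 1.18 times as much (1.10 to 1.27). For 2 other pairs the interval held 1. Dnajb1 per Hspa8 was 0.203 in control and 0.193 in the knockout-labelled islets, 0.951 times as much (0.864 to 1.05). Hspd1 per Hspe1, the 2 parts of the mitochondrial chaperonin, was 2.45 in control and 2.22 in the knockout-labelled islets, 0.907 times as much (0.797 to 1.03).

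**Figure D3:**
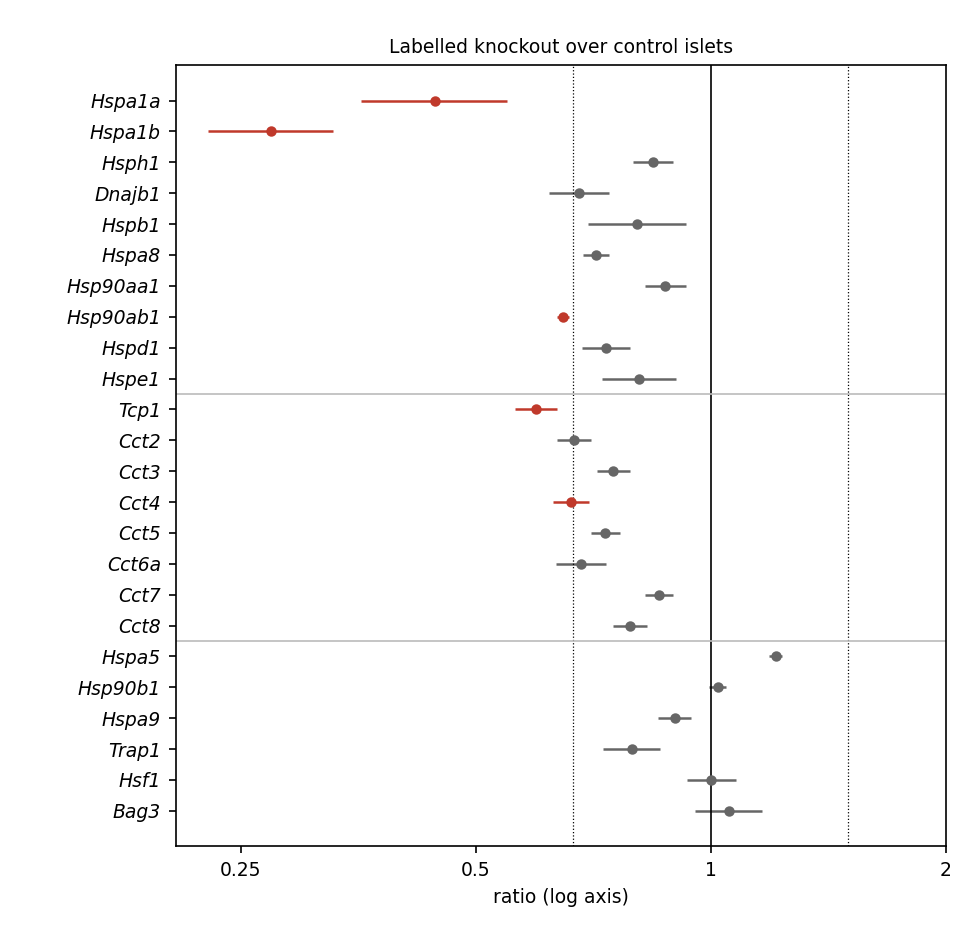
Ratio of the knockout-labelled islets over control islets (log axis) with exact 95% counting intervals, for the 10 chaperones (top), the 8 measured subunits of the cytosolic chaperonin TRiC (middle) and 6 other chaperone or regulator genes (bottom). Red marks genes called lower, grey marks genes not called, dotted lines mark 1.5-fold either way. The upper 18 genes all lie left of 1, while Hspa5, Hsp90b1, Hsf1 and Bag3 lie at or right of 1.

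TRiC, the cytosolic chaperonin that folds actin and tubulin, lay on the same side in this comparison. All 8 of its measured subunits had ratios below 1, from 0.597 to 0.858, with a median log2 ratio of -0.50. Tcp1 had 116 CPM in control and 66.9 CPM in the knockout-labelled islets (0.597, 0.562 to 0.634), and Cct4 had 143 and 91.5 CPM (0.663, 0.629 to 0.699). These 2 were called lower. The list from which TRiC was taken also holds prefoldin, the complex that hands it unfolded actin and tubulin, with 3 of its 6 genes below 1 and none called. Over all 14 genes 11 were below 1, and the median log2 ratio was -0.28.

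Ratios in the other chaperone lists lay on both sides of 1. The lists without the 10 genes had 89 measured genes, of which 2 were called lower (Tcp1 and Cct4) and 3 higher. Their median log2 ratio was 0.00. Those called higher were Hspa13, an HSP70 relative of microsomes (37.7 CPM in control, 69.5 CPM in the knockout-labelled islets, 1.91-fold), Hsbp1, which binds HSF1 (140.5 and 228 CPM, 1.68-fold), and Atf3, a stress-responsive transcription factor (9.41 and 14.6 CPM, 1.61-fold). Hsf1 itself stood at 60.9 CPM in control and 58.9 CPM in the knockout-labelled islets, a ratio of 1.0 (0.932 to 1.08). Bag3, an HSP70 co-chaperone whose gene HSF1 also drives, stood at 32.1 and 32.6 CPM, a ratio of 1.05 (0.955 to 1.16). A further list held 14 measured genes taken as induced by HSF1, other than the 10 described here. It also holds Fos, Jun, Dusp1, Atf3 and Hmox1, general stress or early response genes, so it does not read out HSF1 alone. In this list 1 gene was called higher (Atf3) and 0 lower. The median of these log2 ratios was -0.09.

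The median log2 ratio was 0.03 for 17 HSP40 co-chaperones, 0.06 for 10 HSP70 cofactors, -0.08 for 15 HSP90 co-chaperones and partners, and 0.28 for 6 other small heat shock proteins. None of the genes in these 4 lists was called in either direction in the knockout-labelled islets. It was 0.31 for the 4 measured genes of the heat shock transcription factor list, which includes Hsbp1, and 0.27 for 8 other HSP70 and HSP110 proteins, with 1 gene called higher in each.

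The relatives of HSP70 and HSP90 in other compartments are set beside the cytosolic forms. Hspa5 (BiP), the HSP70 of the endoplasmic reticulum, stood at 719 CPM in control, 840.2 CPM in the knockout-labelled islets, 668 CPM in the RIP and 154 CPM in the IgG library, and its knockout ratio was 1.21. Hsp90b1 (GRP94), the HSP90 of the same compartment, stood at 519, 511, 571 and 121 CPM, with a knockout ratio of 1.02. Hspa9 (mortalin), the mitochondrial HSP70, stood at 138, 119, 180.1 and 2317 CPM, with a knockout ratio of 0.899. Trap1, the mitochondrial HSP90, stood at 52.1, 39.8, 31.2 and 36 CPM, with a knockout ratio of 0.791. None of the 4 was called in the knockout-labelled islets. In the IgG library both genes of the endoplasmic reticulum were at their lowest and Hspa9 at its highest.

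**Figure D4:**
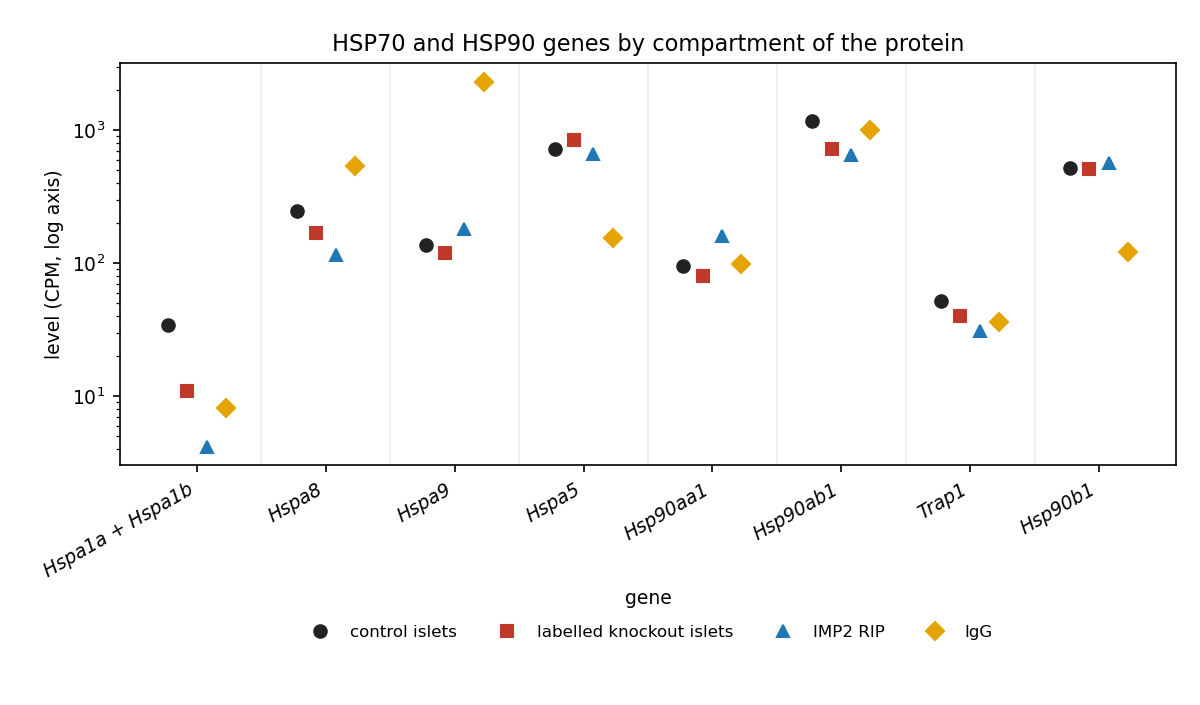
Level (CPM, log axis) of HSP70 genes (left 4 columns) and HSP90 genes (right 4 columns) in the 4 libraries, 1 symbol per library. The endoplasmic reticulum forms Hspa5 and Hsp90b1 are lowest in the IgG library, where Hspa8 and the mitochondrial Hspa9 are highest.

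In the RIP over control, which sets RNA recovered with IMP2 against whole islet RNA, 1 of the 10 chaperones was called higher and 2 lower. The background shares over the 15968 measured genes were 16.8% higher and 24.3% lower. The median log2 ratio was -0.46 for the chaperones, also with Hspa1a at its bound, and -0.12 over all genes. Igf2bp2 RNA itself was 3.87-fold higher in the RIP than in control (30.9 and 9.68 CPM), and it was 6.75-fold higher in the IgG library (34.7 CPM), so that the RIP over IgG ratio was 0.552 (0.463 to 0.655). The labels name no input library for the RIP.

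Hsp90aa1 was the gene called higher, 2.05-fold (1.90 to 2.21) from 95.7 CPM in control to 161 CPM in the RIP. The ratio was 1.69 with library totals and 1.95 with totals that leave out marker genes, both short of the limit. Relative to Hsp90ab1 the gap was wider and free of scaling: 0.0822 Hsp90aa1 counts per Hsp90ab1 count in control and 0.248 in the RIP, 3.02 times as much (2.79 to 3.28). The coding sequences of the HSP90 pair were 75.7% identical, and the windows that Hsp90aa1 shares are with its processed copies. The RIP held 2.53 times as much Hsp90aa1 per Hsp90ab1 as the IgG library also (2.31 to 2.76).

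The inducible HSP70 genes were those called lower in the RIP over control. Hspa1a, at 0 counts, was at least 15.6-fold lower by the exact interval, and 19.3-fold lower when set at 3 counts. Hspa1b, at 25 counts, was 4.56-fold lower (ratio 0.219, 0.141 to 0.327). Reads in the RIP may come from few molecules. A rough value of 18 reads per molecule was taken, the median count of genes at 0 in both islet libraries and above 5 counts in the RIP. It treats each such gene as a single molecule, which was not checked. With it Hspa1a was not called, and Hspa1b was still called but with an interval reaching close to 1 (0.0133 to 0.988). Summed, the pair was 6.87-fold lower in the RIP than in control and held 0.0358 counts per Hspa8 count in the RIP against 0.140 in control, 3.91-fold lower. The RIP held 251 CPM of the B and T cell markers, also below control, and their part in this result was not tested.

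The other 7 chaperones lay within 2-fold of control in the RIP. Those below were Hspa8 at 0.569 (1.76-fold lower, and called with library totals), Dnajb1 at 0.616, Hsp90ab1 at 0.677 and Hspe1 at 0.777. Those above were Hsph1 at 1.24, Hspb1 at 1.246 and Hspd1 at 1.28. Hsph1 per Hspa8 was 0.408 in control and 0.888 in the RIP, 2.18 times as much. All 8 TRiC subunits had ratios below 1 in the RIP as well, from 0.501 to 0.872, and none was called.

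Over all other chaperone genes 3 of 89 were called higher and 8 lower in the RIP over control, and the median log2 ratio was -0.21. Cryaa was called 9.37-fold higher, on 30 counts in the RIP and 17 in control. Grpel2 was called 10.4-fold lower, and Hmox1 and Hspb11, at 0 counts in the RIP, were called lower. Hspa4l, an HSP110 relative, was 2.10-fold higher after TMM (24.0 CPM in control, 41.5 CPM in the RIP). Before TMM its levels lay less than 2-fold apart. Chordc1, an HSP90 co-chaperone, stood at 38.9 CPM in control and 14.3 CPM in the RIP, a ratio of 0.446 (0.353 to 0.556).

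In the RIP over IgG, 0 of the 10 chaperones were called higher and 7 lower, against background shares of 43.2% higher and 30.5% lower over 14822 measured genes. The median log2 ratio was -1.43 for the chaperones, also with Hspa1a at its bound, and 0.44 over all genes. Hspa1a, at 0 counts, was at least 14.6-fold lower by the exact interval, and 18.4-fold lower when set at 3 counts. Hspe1 was 14.6-fold lower, Hspd1 10.3-fold, Hspa8 7.52-fold, Hspb1 2.78-fold, Dnajb1 2.62-fold and Hsp90ab1 2.48-fold. Of these, Dnajb1, Hspb1 and Hsp90ab1 were not called with library totals or with totals that leave out marker genes. Under the latter the direction of Dnajb1 and Hsp90ab1 flipped, and Hspa1b, Hsph1 and Hsp90aa1 were called higher. On estimated molecules Hspa1a was not called. Summed, Hspa1a and Hspa1b had 25 counts in the RIP and 108 with IgG, 3.18-fold lower (ratio 0.314, 0.195 to 0.489). Hsp90aa1 at 1.02 (0.937 to 1.11), Hspa1b at 1.03 (0.587 to 1.78) and Hsph1 at 1.11 were not called.

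The denominator of that comparison is the library with brown fat RNA, and its own chaperone levels show what the ratios above divide by. In IgG over control 4 of the 10 chaperones were called higher and 1 lower, against background shares of 25.7% higher and 47.3% lower over 15352 measured genes. The median log2 ratio was 0.82, against -0.79 over all genes. Hspd1 was 12.6-fold higher (12 to 13.3), Hspe1 10.9-fold (10 to 11.8), Hspa8 4.11-fold (3.97 to 4.25) and Hspb1 3.33-fold (2.91 to 3.82). With totals that leave out marker genes Hspa8 and Hspb1 were not called, and Hspb1 was not called with library totals either, while Hspd1 and Hspe1 were called under each scaling. The mitochondrial HSP70 Hspa9 was 31.7-fold higher. Hspd1 per Hspe1 was 2.84 in the IgG library and 2.45 in control.

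Hspa1b was 4.88-fold lower in the IgG library than in control (ratio 0.205, 0.140 to 0.291), and the pair held 0.0152 counts per Hspa8 count there, 9.23-fold below control. Hspa1a per Hspa1b was 2.27 in the IgG library, 4.48 times that of control, on 75 and 33 counts. Summed, the pair was called lower, 2.25-fold below control (ratio 0.445, 0.361 to 0.544). The remaining ratios to control were 0.918 for Hspa1a, 1.07 for Hsph1, 1.56 for Dnajb1, 1.61 for Hsp90ab1 and 1.93 for Hsp90aa1, none called. Hsp90aa1 was called higher with DESeq2 size factors, and Hspa1a was called lower with library totals and with totals that leave out marker genes. The number of chaperones below control in the IgG library was 2 with TMM, 1 with DESeq2 size factors, 5 with library totals and 6 with totals that leave out marker genes. The part of the brown fat RNA in these ratios was not tested.

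**Figure D5:**
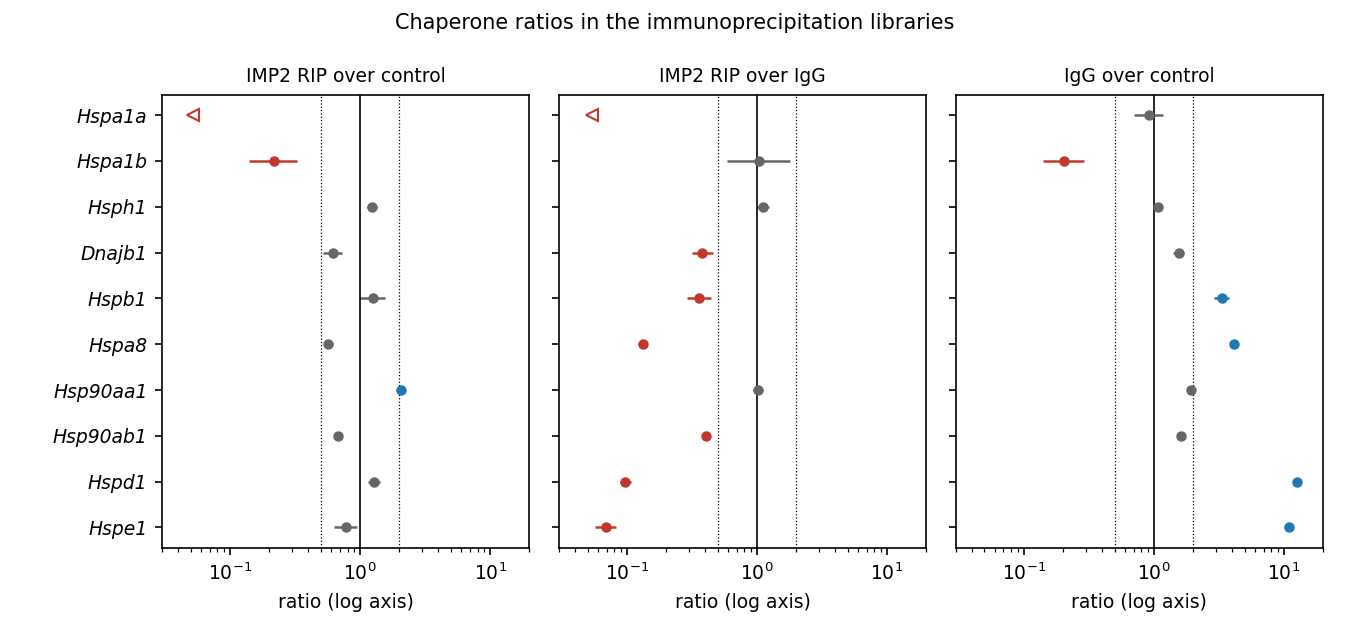
Ratios of the 10 chaperones (log axis) for the RIP over control, the RIP over IgG and IgG over control, with exact 95% counting intervals. Red marks genes called lower, blue genes called higher and grey genes not called, and dotted lines mark 2-fold either way. Open triangles mark Hspa1a, which had 0 counts in the RIP, with 3 counts set there. The low values of Hspd1, Hspe1 and Hspa8 in the middle panel mirror their high values in the right panel, since both use the IgG library.

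The comparisons share libraries, so their ratios are not independent. Side by side, Hspa1b was 0.273 of control in the knockout-labelled islets, 0.219 in the RIP and 0.205 with IgG, and so was low in each library other than control. Its near copy Hspa1a was 0.443, 0 and 0.918 of control, and the summed pair was 0.330, 0.146 and 0.445. Reads that fit both genes equally well are in neither count, so the sum lacks them too. Hsf1, the gene of the heat shock factor, stood at 38.5 CPM in the RIP and 5.23 CPM with IgG and was called 4.57-fold higher in the RIP over IgG. Bag3 stood at 25.7 and 46.2 CPM and was called 2.90-fold lower there. Bag3 was not called with library totals (ratio 0.556) or with totals that leave out marker genes (ratio 0.907).

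The genes whose pattern over the 4 libraries was most like that of Hspa1b were sought among 6947 genes with at least 50 counts in every library, by the distance in 3 log2 CPM differences from control. The nearest 5 were Hcls1, Cd83, Pik3cd, H2-Ab1 and Selplg, at distances of 0.339 to 0.450. Hcls1, an actin-binding protein of blood cells, stood at 103 CPM in control, 25.6 CPM in the knockout-labelled islets, 16.9 CPM in the RIP and 13.8 CPM in the IgG library. H2-Ab1, a chain of MHC class II on antigen-presenting cells, stood at 631, 221, 121 and 66.4 CPM. All 5 are known as genes of blood and immune cells, and the share of such genes among the 6947 was not counted. Hspa1b itself had too few counts in the RIP (25) and IgG (33) libraries to be in that pool. The counting intervals of its TMM ratios to control were 0.141 to 0.327 in the RIP and 0.140 to 0.291 with IgG. That error was not carried into the distances, so the order of the nearest genes is not firm. Neither Hspa1a nor the sum of the pair was searched, so this likeness holds for the Hspa1b counts alone.

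For Hspa8 the nearest 5 were Osbpl9, Rps26, Rpl36-ps2, Supt4a and Anxa2, at distances of 0.0741 to 0.218. Osbpl9, a lipid-binding protein, stood at 65.4 CPM in control, 44.4 CPM in the knockout-labelled islets, 29.4 CPM in the RIP and 139 CPM in the IgG library. The order of the libraries was that of Hspa8. Likeness over 4 libraries is a description and says nothing on shared control.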

How the data were processed

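The authors deposited 1 table of raw counts per library, with whole reads per Ensembl gene. Per the submitters' processing notes, reads were aligned with STAR to mm10 and counted with HTSeq. Tool versions, the strand setting and the read length are not given in the sources used here. Reads over the overlap of genes such as Hspd1 and Hspe1 may have gone to the ambiguous entry, which counts for neither gene. That entry held 3.89% to 10.7% of each file, most in the RIP. Closing entries that name no gene held 50.3% to 72.4% of each file (reads aligned more than once, 28.4% to 48.2%) and stayed out.

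Symbols came from GENCODE M21, which matched 42548 of 43629 identifiers. Pairs of libraries were scaled by TMM in edgeR 4.0.16 (R 4.3.3), and genes with a mean CPM of at least 1 were measured. Ratios have Clopper-Pearson 95% intervals, ratios of ratios log-normal ones, and 0.5 counts were added before list medians. A fold against 0 counts was also given with 3 counts set in that library. Alternatives were DESeq2 1.42.0 size factors, other totals, minimums and fold limits, an assumed variation, estimated molecules and a summed HSP70 pair. The ratio code was checked on simulated counts with counting error only, which tests neither TMM nor variation between libraries. Members and gene lists were chosen with earlier results of these data known. Named genes are the 10 chaperones, Hsf1, Bag3, Igf2bp2, up to 3 called genes per list and direction, and the 5 nearest genes by pattern. Hspa5, Hsp90b1, Hspa9, Trap1 and the TRiC subunits were shown as relatives. Python 3.11.15 with SciPy 1.17.1 was used.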

Additional observations from a re-analysis of the deposited data

How the results depend on the processing

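With 1 library per group no difference has a replicate check, and all limits come from counting error in 4 libraries. In the knockout-labelled islets over control, the count of chaperones called lower moved from 3 to 10 with no fold limit and to 6 with the lower fold limit. Over all 15735 measured genes it moved from 2409 to 4959 and to 3680. In the RIP over IgG, those called lower went from 7 to 4 with library totals and to 4 with totals without marker genes, and those called higher from 0 to 3 with totals without marker genes and to 1 with no fold limit. Under totals without marker genes the log2 ratios of Dnajb1 (0.0058) and Hsp90ab1 (0.085) in the RIP over IgG changed sign, as did that of Hsph1 in IgG over control (-1.31). In the RIP over control, the 1 called higher went to 0 with library totals, to 0 with totals without marker genes and to 4 with no fold limit. The 2 called lower there went to 6 with no fold limit, 4 with the lower fold limit, 1 on estimated molecules and 1 with Hspa1a and Hspa1b summed, where the pair is a single entry. The other chaperone lists called lower there went from 8 to 5 at a mean CPM of at least 5. In IgG over control, those called higher went from 4 to 2 with totals without marker genes, 7 with no fold limit and 7 with the lower fold limit, and the 1 called lower went to 2 with library totals and 3 with totals without marker genes.

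Scaling moved the median log2 ratio of all genes from 0.44 to 1.84 in the RIP over IgG, from -0.12 to -0.40 in the RIP over control and from -0.79 to -2.20 in IgG over control. Of all called genes, the share called higher was 58.6% with TMM, 69.4% with library totals and 78.7% with totals without marker genes in the RIP over IgG, and 35.2%, 21.9% and 16.6% in IgG over control. It stood at 28.6% in the knockout-labelled islets, and at 47.9% with no fold limit. Counts of called genes over all genes moved too. The knockout-labelled islets had 965 higher and 2409 lower, with 4552 and 4959 without the fold limit and 267 and 1572 with the assumed variation. On estimated molecules the RIP over IgG went from 6402 and 4518 to 2309 and 2829, the RIP over control from 2686 and 3888 to 1373 and 1004, and IgG over control from 3943 and 7268 to 3405 and 3963. No paired analysis was possible because each group has 1 library.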
